A study of Rattus norvegicus with 61 samples.

Results

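The comparison set the livers of rats given acetaminophen (APAP) against those of rats given methylene dianiline (MDA), with the livers of vehicle rats (Ctrl) shown beside them. The members were the 5 columns labelled APAP and the 5 labelled MDA, 10 of the 61 samples of the series, and 5 vehicle livers were used for reference. All were male Sprague-Dawley rats without a genetic change, bought at 6 weeks of age, fasted overnight before dosing and sampled 24 h after a single gavage. APAP was given at 3 g/kg, MDA at 300 mg/kg and the vehicle was 0.5% methylcellulose. The livers were flushed through a vein before a piece of the largest lobe was taken for RNA, and the other 46 samples were spleen, whole blood cells and 6 sorted immune cell types. The labels number the livers of a group but do not state that each is another animal, so the p-values measure the spread between these samples.

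Acetaminophen is an analgesic that the liver clears mainly by conjugation. At high doses more of it is oxidized by cytochrome P450 enzymes to a reactive quinone imine, which depletes glutathione and injures hepatocytes around the central vein. Methylene dianiline is an aromatic amine used in making polyurethanes and epoxy resins, and in the rat it is known above all for injury to the lining of the bile ducts, with inflammation around the portal tracts. The question for this pair was how the transcript levels of a liver with a hepatocyte toxicant differ from those of a liver with a bile duct toxicant. The doses differ, so the contrast is between the treatments as given and not between the compounds at an equal dose.

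RNA was quantified per transcript, and the values are estimated counts whose totals ran from 10524187 to 12059098 in APAP livers, from 10847317 to 14146402 in MDA livers and from 10484912 to 12547746 in vehicle livers. They were divided by the total of the liver and multiplied by 1000000 to give CPM. The value of 1 read differed between transcripts and hardly between livers, as in counts made back from TPM, so CPM was read as a level per transcript length. The transcripts carry Ensembl identifiers with no gene names in the tables used here, so they were described by their level, by where else they were found and by identifier. The hepatocyte, bile duct and immune marker genes could not be looked up, so the tissue label was not checked against its markers.

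The 2 treatments gave livers that stood apart from each other and from the vehicle livers. On log2 values (CPM divided by the TMM factor, 1 added) the typical distance between an APAP and an MDA liver, as the root mean square difference over transcripts, was 0.87, and the closest such pair was 0.74 apart. Pairs of APAP livers were 0.56 to 0.68 apart and pairs of MDA livers 0.47 to 0.65, so every pair across the treatments was farther apart than every pair within either treatment. Pairs of vehicle livers were 0.56 to 0.75 apart, a range that takes in the closest pair across the treatments. Vehicle livers lay at a median distance of 1.02 from the APAP livers and of 0.86 from the MDA livers. The first principal component, with 36.9% of the variance, ran from vehicle livers (-50.8 to -38.4) through MDA livers (-11.7 to -0.1) to APAP livers (34.8 to 62.4). The second, with 18.9%, separated the MDA livers (-48.4 to -35.5) from all 10 others (12.9 to 27.4). The MDA livers therefore did not lie on a line between vehicle and APAP.

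**Figure D1:**
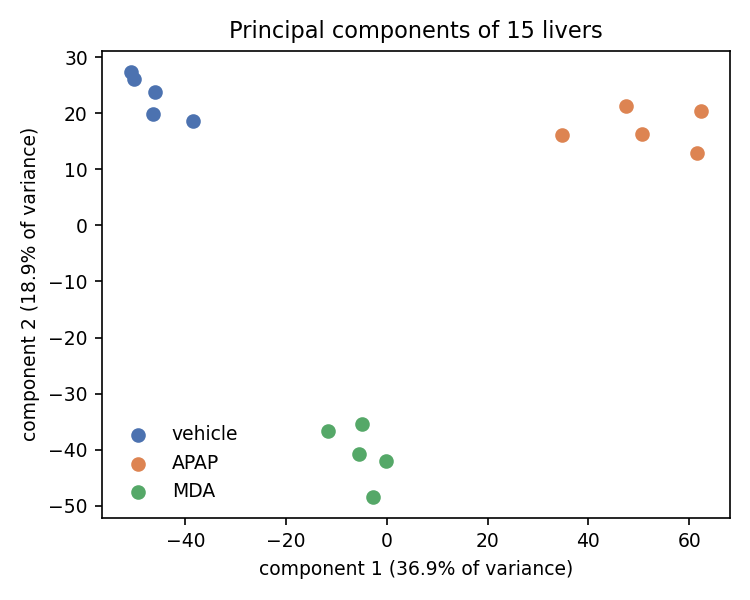
The first (x axis) and second (y axis) principal components of the 15 livers, with the share of variance of each on its axis. Each point is 1 liver. The MDA livers lie between the other groups on the first component and at -35.5 or lower on the second, where the vehicle and APAP livers are all at 12.9 or higher.

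Transcript by transcript, edgeR's quasi-likelihood test on all 15 livers called 4480 of 13482 transcripts different between APAP and MDA livers at a Benjamini-Hochberg adjusted p under 0.05, which is 33.2% of those tested. Of these, 2185 (16.2% of those tested) were higher in APAP livers and 2295 (17.0%) were higher in MDA livers. The median size of a called difference was 0.86 on the log2 scale, with a median standard error of 0.19. This even split depends on the scaling. With TMM factors, which set the bulk of transcripts level, 48.8% of the called transcripts were higher in APAP livers, and with totals alone 63.9% were (2739 higher in APAP, 20.3% of those tested, and 1546 higher in MDA, 11.5%), while the median log2 difference of all transcripts moved from 0.008 to 0.16.

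Large differences were found in both directions. With TMM factors, called differences of at least 2-fold numbered 791 with APAP higher and 955 with MDA higher, among 13482 transcripts tested. Those of at least 4-fold numbered 218 and 232, and those of at least 32-fold 21 and 19. Counts by fold were not made with totals alone, where more of the called transcripts were higher in APAP. All 5 APAP livers lay above all 5 MDA livers in 1695 of the transcripts called higher in APAP, and below them in 1166 of those called higher in MDA. With TMM factors these counts were 1409 and 1670. Over all tested transcripts the livers were apart in those directions in 15.4% and 8.82% on CPM, and in 11.3% and 13.2% with TMM factors.

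The vehicle livers show on which side each group of transcripts lay. Transcripts called higher in APAP than in MDA had a median log2 difference from vehicle of 0.72 in APAP livers and of -0.08 in MDA livers. Those called higher in MDA had a median of -0.74 in APAP livers and of 0.17 in MDA livers. With TMM factors the APAP livers were thus the ones farther from vehicle at the median in both directions. The mean TMM factor was 0.756 in vehicle, 1.22 in APAP and 1.10 in MDA livers. The comparisons with vehicle were not fitted with totals alone, so which treatment lay farther may depend on that scaling. For the largest contrasts the MDA livers were far from vehicle as well. The 21 transcripts at least 32-fold higher in APAP had medians of 3.11 in APAP livers and -2.64 in MDA livers, and the 19 at least 32-fold higher in MDA had medians of -2.85 and 3.39. These 3 comparisons share livers, and choosing transcripts on the APAP and MDA difference fixes part of such medians, so they are given as values with no test. In the same fit, with TMM factors, 5505 transcripts (40.8%) differed between APAP and vehicle livers, 20.3% higher and 20.5% lower. Between MDA and vehicle livers 2963 (22.0%) differed, 10.6% higher and 11.3% lower. These counts were not made with totals alone.

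In each direction 2 transcripts are given by identifier, chosen as the one with the largest fold and the one with the largest difference in CPM. ENSRNOT00000007638 had the largest fold toward APAP. Its level was 8.22, 8.37, 6.69, 19.5 and 7.36 CPM in the 5 APAP livers, 3.01, 1.44, 0.733, 1.96 and 3.77 CPM in the vehicle livers, and 0.0236, 0, 0, 0 and 0.0293 CPM in the MDA livers. Every APAP liver was above every vehicle liver, and the MDA livers were below all of them. The highest MDA value was 0.415 counts, under the limit of 3 counts set for detection. The APAP mean of 10.0 ± 5.35 CPM (SD, n = 5) was at least 36 times that limit in the MDA livers, and differed from them (edgeR, adjusted p = 1.7e-05). Without APAP replicate 4, which was the highest, the APAP mean was 7.66 ± 0.787 CPM. The difference from vehicle was 1.53 ± 0.46 (SE) on the log2 scale after APAP (edgeR, adjusted p = 2.1e-02), and the fall after MDA passed too (edgeR, adjusted p = 1.1e-04). It was listed at 0 in the means of all 6 sorted cell types, spleen and whole blood cells.

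ENSRNOT00000028545 had the largest difference in CPM toward APAP. It stood at 15635, 7347, 11378, 12566 and 7725 CPM in the APAP livers, against 1429, 1883, 3699.9, 905 and 3096 CPM in the MDA livers and 1564, 489, 3028, 1308 and 2075 CPM in the vehicle livers. The lowest APAP liver was above the highest of the other 10, while the MDA and vehicle ranges overlapped. Its mean was 4.96 times that of the MDA livers, and the log2 difference was 2.19 ± 0.46 (SE; edgeR, adjusted p = 0.0019). Against vehicle it was higher by 1.96 after APAP (edgeR, adjusted p = 2.9e-03) and differed by -0.24 after MDA, which did not pass (edgeR, adjusted p = 7.6e-01), although its mean CPM was higher after MDA (2203 ± 1164) than after vehicle (1693 ± 941). It ranked 67 by level in vehicle livers, and its highest mean among the sorted cell types was 3.30 CPM.

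ENSRNOT00000091923 had the largest fold toward MDA. It was listed at 0 in all 5 vehicle and all 5 APAP livers, and at 23.1, 11.1, 11.8, 9.99 and 27.7 CPM in the MDA livers. It was thus detected after MDA in every liver and after the other treatments in none. The MDA mean of 16.7 ± 8.09 CPM (SD, n = 5) was at least 58-fold higher than in APAP livers (edgeR, adjusted p = 8.9e-05). It too was listed at 0 in the means of all 6 sorted cell types, spleen and whole blood cells.

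ENSRNOT00000045628 had the largest difference in CPM toward MDA and was the transcript of rank 4 in vehicle livers. Its levels were 29448, 29535, 24274, 24869 and 28068 CPM after MDA, 22911, 24182, 24546, 23852 and 23060.0 CPM after vehicle, and 10169, 9774, 11099, 10072 and 13065 CPM after APAP. All 5 APAP livers lay far below the other 10, and the MDA range overlapped the vehicle range. The MDA mean was 2.51 times the APAP mean, with a log2 difference of -1.49 ± 0.15 (APAP minus MDA, SE; edgeR, adjusted p = 4.7e-06). Against vehicle it was lower by 1.85 after APAP in the same fit (log2 difference -1.85; edgeR, adjusted p = 4.2e-07). After MDA the fitted difference was -0.36, which did not pass (edgeR, adjusted p = 9.5e-02), although the mean CPM of 27239 ± 2512 was above that of the vehicle livers (23710.2 ± 708). For both transcripts the sign of the difference between MDA and vehicle depends on the TMM factors.

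**Figure D2:**
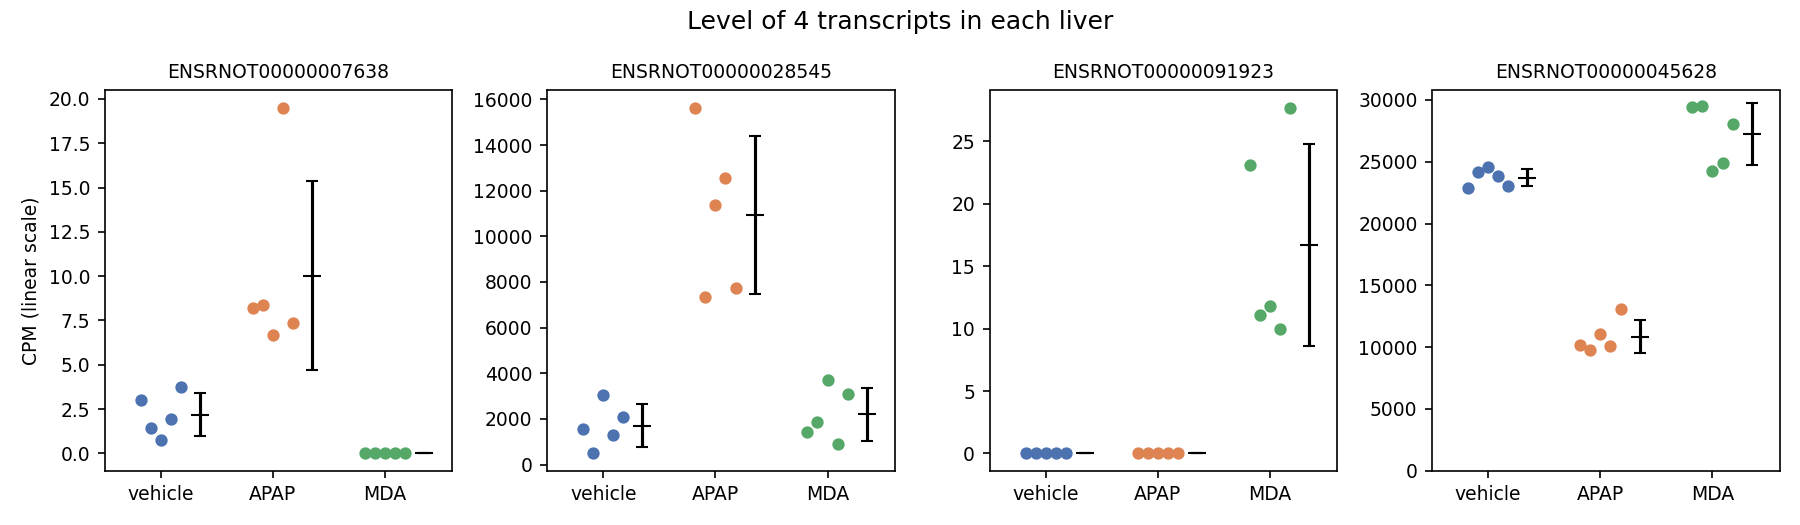
CPM (y axes, linear scale, each panel with its own range) of 4 transcripts in the 5 vehicle, 5 APAP and 5 MDA livers. Points are livers and bars the mean ± SD. In the first panel the MDA livers are at or near 0, in the second the APAP livers are high, in the third the vehicle and APAP livers are at 0, and in the fourth the APAP livers are low.

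Among abundant transcripts of the liver, more were called lower than higher in APAP livers, by a margin that depends on the scaling. Among transcripts with a mean of 100 to 1000 CPM in vehicle livers, 34.4% of 875 were called higher in MDA livers and 14.2% higher in APAP livers, with a median log2 difference of -0.24. At 1000 CPM and up it was 28.8% against 13.5% of 111 transcripts, again with a median of -0.24. At 10 to 100 CPM it was 23.8% against 19.7% of 3855 transcripts. Under 1 CPM 17.7% of 1181 tested transcripts were higher in APAP and 8.04% higher in MDA, but transcripts so low in vehicle livers passed the filter only through the treated livers, so nothing is read from that class. The shares for the whole table were 16.2% and 17.0%. With totals alone the excess at 100 to 1000 CPM was smaller (28.6% against 24.0%), that at 1000 CPM and up was 26.1% against 23.4%, and the balance at 10 to 100 CPM turned, with 16.8% higher in MDA and 26.8% higher in APAP.

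**Figure D3:**
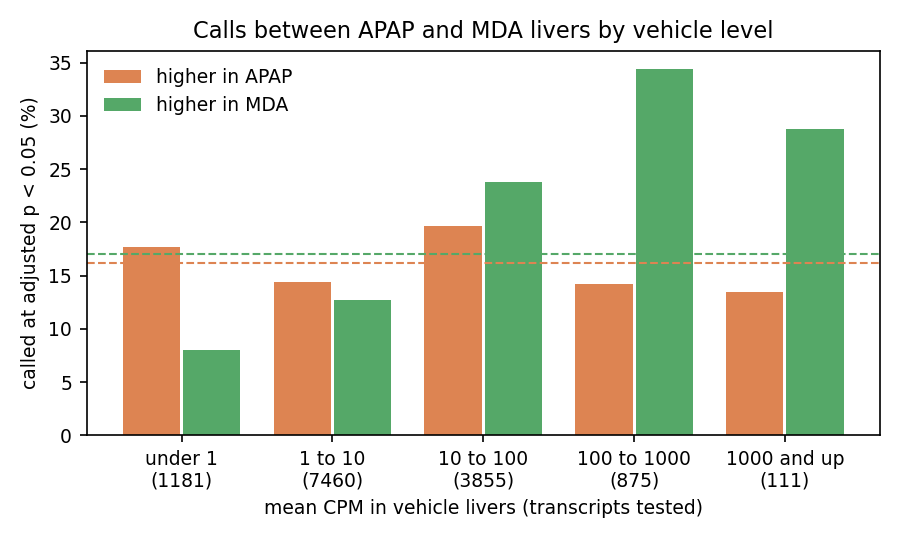
Share of tested transcripts (y axis, %) called higher in APAP or in MDA livers, by mean CPM in vehicle livers (x axis, number tested in parentheses). Dashed lines mark the shares over all transcripts, 16.2% and 17.0%. From 10 CPM up, calls higher in MDA outnumber those higher in APAP. With totals alone this holds from 100 CPM up and turns at 10 to 100 CPM.

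The 10 most abundant transcripts of each liver held 15.0% to 18.5% of the total in APAP livers (17.5% ± 1.47, SD, n = 5), 20.0% to 23.8% in MDA livers (21.8% ± 1.65) and 24.9% to 29.6% in vehicle livers (27.1% ± 1.85). The groups did not overlap, and the APAP share minus the MDA share was -4.29 percentage points (two-sided exact permutation test over all splits of 5 against 5, p = 0.00794, the smallest that it can give, adjusted p = 0.0159 over 2 measures). With the 100 most abundant transcripts the difference was -2.20 percentage points (exact permutation p = 0.183). The most abundant transcript of vehicle livers stood at 67535 ± 6845 CPM there, 35595 ± 3898 after APAP and 45031 ± 2407 after MDA. Of the 10 most abundant in vehicle livers, edgeR with TMM factors called 5 lower in APAP and 0 higher, against 17.0% and 16.2% of all transcripts tested. The calls of these 10 were not counted with totals alone. With TMM factors 9 of the 10 had a log2 difference below 0 between APAP and MDA. The exception was the transcript of rank 9, at 15841 ± 1415 CPM after vehicle, 14411 ± 1759 after APAP and 9302 ± 1316 after MDA, with a log2 difference of 0.46 ± 0.19 (SE; edgeR, adjusted p = 0.078). Transcripts detected at 1 CPM or more numbered 13585 ± 333 in APAP livers, 13268 ± 346 in MDA livers and 12230.2 ± 658 in vehicle livers, and the difference of 317 between APAP and MDA did not pass (exact permutation p = 0.167; 187 to 422 when 1 liver was left out).

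Transcripts enriched in the liver were mostly lower after APAP than after MDA where they were called. The set held 847 transcripts with at least 10 CPM in vehicle livers and at least 10 times the level of every sorted cell type, spleen and whole blood cells, so neither the APAP nor the MDA livers chose it. In it 410 transcripts (48.4%) were lower in APAP than in MDA livers and 82 (9.68%) were higher, against 17.0% and 16.2% of all transcripts tested. The median log2 difference was -0.55, against 0.008 over all transcripts, and with totals alone it was -0.39, with 347 lower and 98 higher. The shift was much the same at each level of abundance. It was -0.55 for the 455 members under 100 CPM in vehicle livers, -0.55 for the 321 members of 100 to 1000 CPM and -0.49 for the 71 members above that.

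Summed over the set, liver-enriched transcripts held 33.9%, 32.9%, 33.3%, 35.3% and 37.7% of the total in the APAP livers, and 43.2%, 41.8%, 40.0%, 39.5% and 45.9% in the MDA livers. Vehicle livers held 46.0%, 52.5%, 48.7%, 52.1% and 52.1%. The 3 groups did not overlap, with APAP lowest and vehicle highest. Vehicle was highest through the 71 members at 1000 CPM and up. Members of 100 to 1000 CPM held 10.1% ± 0.600 of the total after vehicle, 8.35% ± 0.827 after APAP and 11.0% ± 0.716 after MDA, and those under 100 CPM held 1.77% ± 0.202, 1.71% ± 0.255 and 2.07% ± 0.158. Against vehicle, whose livers did choose the set, the median log2 differences of the members with TMM factors were -1.27 after APAP and -0.63 after MDA. The shares above are on totals, where the members under 1000 CPM held more after MDA than after vehicle. These medians were not computed with totals alone. In bulk tissue, fewer hepatocytes and less of these RNAs per hepatocyte cannot be told apart, nor can either from more RNA of other cells.

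A set of 1411 transcripts at 10 CPM or more and within 3-fold of each other in vehicle liver, spleen, whole blood cells and all 6 sorted types showed no such shift. Of these broadly expressed transcripts, 298 (21.1%) were higher in APAP livers, 244 (17.3%) were lower, and the median log2 difference was 0.01. With totals alone 444 were higher, 152 lower and the median was 0.16, the same as that of all transcripts under that scaling.

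**Figure D4:**
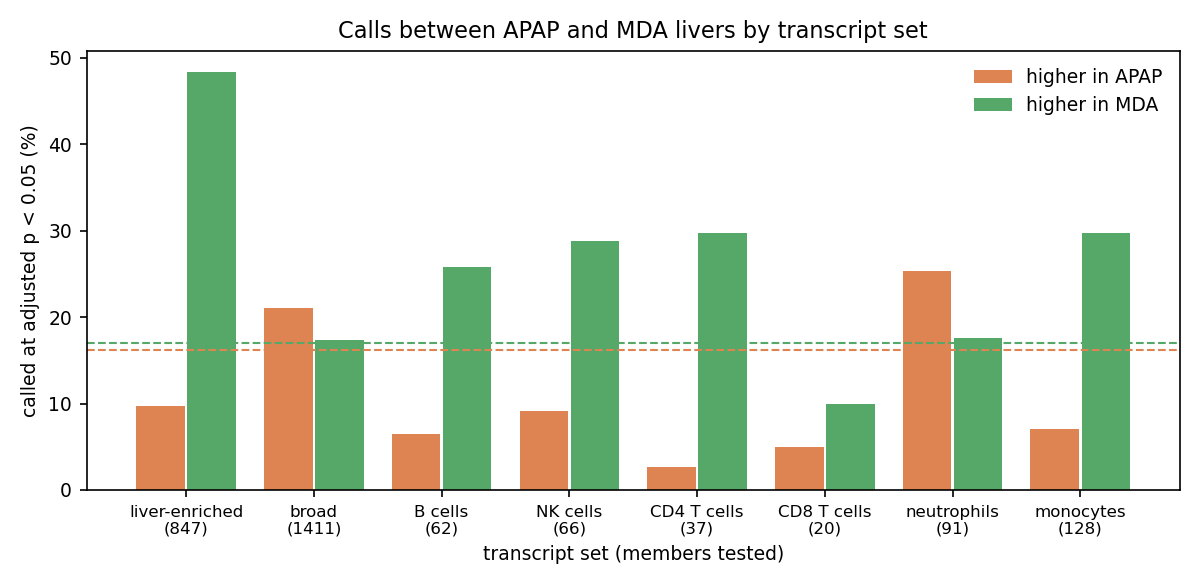
Share of the tested members (y axis, %) called higher in APAP or in MDA livers in 8 transcript sets (x axis, number tested in parentheses). Dashed lines mark the shares over all transcripts, 16.2% and 17.0%. Calls higher in MDA reach 48.4% in the liver-enriched set, and the broad and neutrophil sets are the ones with more calls higher in APAP.

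Immune cells are known to enter injured liver, neutrophils being the first phagocytes to reach damaged tissue and monocytes the precursors of many macrophages that clear it. Sets of up to 200 transcripts highest in each sorted cell type were read in the livers. Of 128 monocyte transcripts tested, 38 (29.7%) were lower in APAP than in MDA livers and 9 (7.03%) higher, against 17.0% and 16.2% of all transcripts, with a median log2 difference of -0.29. With totals alone 26 were lower and 16 higher. The B cell set had 16 lower (25.8%) and 4 higher (6.45%) of 62, the NK cell set 19 lower (28.8%) and 6 higher (9.09%) of 66, and the CD4 T cell set 11 lower (29.7%) and 1 higher (2.70%) of 37. With totals alone these 3 sets had 12, 15 and 8 lower. The CD8 T cell set had 2 lower and 1 higher of 20. In the neutrophil set 23 of 91 (25.3%) were higher in APAP livers and 16 (17.6%) lower, the latter near the 17.0% of all transcripts, with a median of -0.03, and with totals alone 24 were higher and 11 lower. Whether the sets differ from each other was not tested.

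Part of each set is also expressed in vehicle liver, with 110 of 200 monocyte members and 78 of 200 neutrophil members at 1 CPM or more there. The immune sets were therefore narrowed to members of at least 10 CPM in their own cell type whose level in vehicle livers was at most 0.1 times that, a choice made after the values were seen. The neutrophil set then kept 145 members. Their summed level was 1045, 942, 1161, 1675 and 998 CPM in the APAP livers, 497, 553, 579, 432 and 545 CPM in the MDA livers, and 378, 356, 357, 389 and 464 CPM in the vehicle livers. Every APAP liver lay above every MDA liver, and the MDA and vehicle ranges overlapped. On CPM divided by the TMM factor the sums were 754 to 1507 after APAP and 440.0 to 521 after MDA, also without overlap.

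The sums did not rest on 1 member, but a few members made up much of them. Without the member highest in the treated livers the sums were 686 to 1099.5 CPM after APAP and 423 to 547 CPM after MDA. Without the 5 highest they were 364 to 615 and 283 to 355 CPM, apart by little, and with TMM factors (271 to 319.7 after MDA, with the lowest APAP liver at 305) they overlapped. Without the 10 highest they overlapped on CPM as well (244 to 395 and 226 to 287). The mean CPM was higher in APAP livers for 93 (72.1%) and higher in MDA livers for 36 (27.9%) of the 129 members above 0 in either treatment, while over all 22237 transcripts above 0 it was 59.2% and 40.8%. Of the 145, 59 passed the filter on low values, and edgeR called 20 (33.9%) of them higher in APAP and 10 (16.9%) lower, against 16.2% and 17.0% of all transcripts. Since a member could pass through the treated livers alone, these 2 counts only describe the members that passed.

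The monocyte set, narrowed the same way to 118 members, gave another order. Its sums were 842, 739, 757, 729.7 and 716 CPM in the APAP livers, 839, 871, 941, 700.1 and 794 CPM in the MDA livers, and 401, 368, 400.1, 402 and 486 CPM in the vehicle livers. On CPM both treated groups lay above all vehicle livers and overlapped with each other. Their mean on CPM was 757 after APAP and 829 after MDA. With TMM factors the APAP sums (554 to 704) lay below the MDA sums (712 to 797) and overlapped the vehicle sums (458 to 668). The MDA mean was thus the higher on CPM too, but whether the treatments stood apart depends on the scaling. Without the member highest in the treated livers the sums with TMM factors were 504 to 538 after APAP and 655 to 769.8 after MDA. Without the 10 highest they were 211 to 241 and 247 to 297, still apart, and the vehicle sums (229 to 357) overlapped both. On CPM the treatments overlapped in both cases (247 to 292 and 253 to 362 without the 10 highest). Of the 64 members that passed the filter 4 (6.25%) were called higher in APAP and 10 (15.6%) lower, no more than the 16.2% and 17.0% of all transcripts. Their median log2 difference was -0.13, and with totals alone it was 0.02, with 6 higher and 9 lower. The same limit of the filter holds for these counts.

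**Figure D5:**
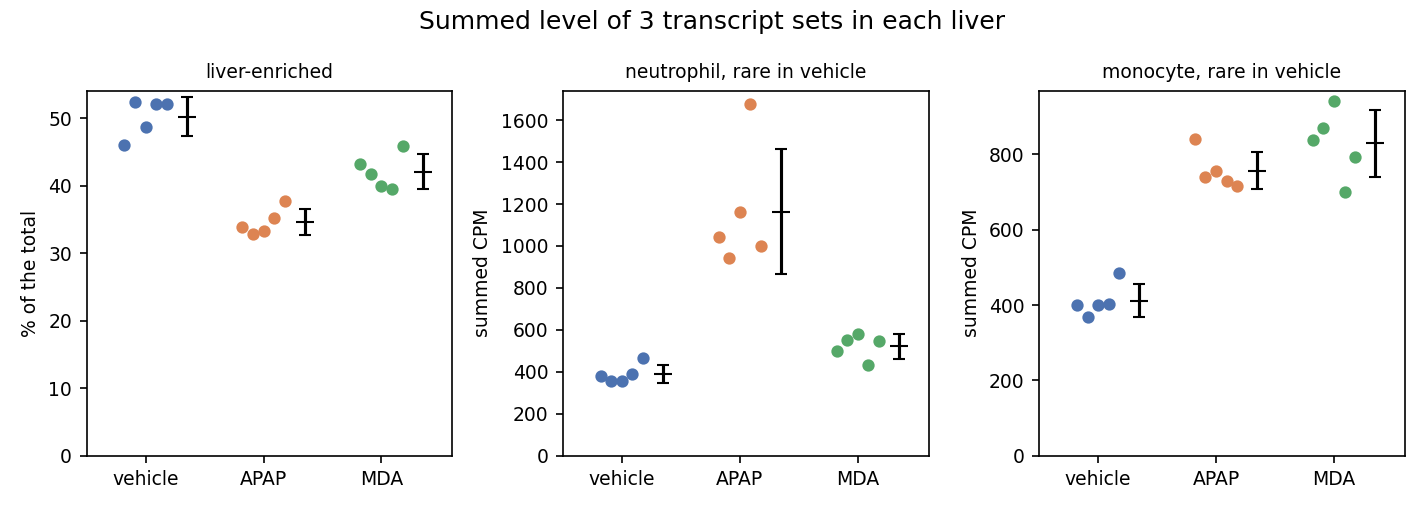
Summed level of liver-enriched transcripts (% of the total) and of neutrophil and monocyte transcripts that are rare in vehicle liver (summed CPM) in each vehicle, APAP and MDA liver. Points are livers and bars the mean ± SD. APAP livers are the lowest group in the first panel and the highest in the second, while APAP and MDA livers overlap in the third.

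Transcripts whose highest mean was in whole blood cells were summed as a possible reading of residual blood. Their summed level was 2049 to 6333 CPM in APAP livers and 2362 to 6121 CPM in MDA livers, which overlapped, and 8128 to 19187 CPM in vehicle livers. The narrowed neutrophil and monocyte sums instead had their lowest mean CPM in vehicle livers (389 and 411). Whether the sum of the whole blood class follows residual blood was not tested, nor was the part of blood in the immune set values.

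Some transcripts at or under the limit of 3 counts in the vehicle livers were above it in the treated livers. Of 13497 transcripts at 3 counts or fewer in each vehicle liver, 153 were above 3 counts in all 5 APAP livers, 97 in all 5 MDA livers and 44 in both. In 30 the count was above 3 in every APAP liver and in no MDA liver, with a mean of at most 5.14 CPM. In 13 it was above 3 in every MDA liver and in no APAP liver, the highest of them being ENSRNOT00000091923 at 16.7 CPM. Such counts were not made over all transcripts, but of all 22237 above 0 in either treatment 59.2% had the higher mean in APAP and 40.8% in MDA. The 13497 transcripts summed to 90.9 to 152 CPM in the vehicle livers, so not all were absent there. Of them, 11115 stayed at or under 3 counts in all 10 treated livers. That limit lay between 0.212 and 0.286 CPM, and since 1 read was worth about 0.261 to 12.6 counts depending on the transcript, it stood for less than 1 read in some transcripts and for several in others.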

How the data were processed

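Bulk RNA-seq values of 31196 rat transcripts were used. Per the labels and methods, the authors quantified reads with Salmon 1.6.0 on Ensembl cDNA of Rnor_6.0 and imported them in R 4.1.3. The labels also name another rat build, whose role is not given in the sources used here. The authors' methods give TPM, but the values they deposited are estimated counts, quantified per transcript and lying on the scale of the library size. Over all 61 samples 0.191% of the values above 0 lie within 0.001 of a whole number. For 2709 transcripts the lowest values in the 15 livers, taken as 1 read, were worth 1.25 counts at the median (spread between livers 2.54%). Of 10784 higher values, 59.6% lay within 0.15 of a whole multiple, against 30.0% for even spacing, as in counts made back from TPM.

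Values were rounded and tested with edgeR 4.0.16 (quasi-likelihood, TMM, all 15 livers, mean of at least 1 CPM, Benjamini-Hochberg, threshold 0.05), and 17714 transcripts were below the minimum. The code was tested on simulated counts. Fits with DESeq2 1.42.0 and limma 3.58.1 were alternatives, the limma fits on log2 CPM from totals without TMM factors. No 2 livers held identical values. Groups came from the labels. Single values per liver were compared by exact permutation. Identifiers named in the text are, in each direction, the called transcript with all livers apart that had the largest log2 fold change (group mean of at least 10 CPM in the higher treatment) and the one with the largest CPM difference. Of the identifiers, 0 matched the 47357 genes of the GRCr8 list used here. Members, sets and tests were chosen with earlier results of these data known. Counting limits cover counting error only.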

Additional observations from a re-analysis of the deposited data

Results flagged for a closer look

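In 61 groups of 5 livers, 4 held a liver that lay far from the other 4 by Dixon's test (critical value 0.71), and chance alone gives about 1 in 20 groups. ENSRNOT00000007638 stood at 19.5 CPM in APAP replicate 4 and next at 8.37 CPM. The 10 most abundant transcripts held 15.0% of the total in APAP replicate 3 and next 17.7%. The CD4 T cell transcripts that are rare in vehicle liver summed to 12.6 CPM in vehicle replicate 1 and next to 7.74 CPM. The monocyte transcripts that are rare in vehicle liver summed to 486 CPM in vehicle replicate 5 and next to 402 CPM.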

How the results depend on the processing

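The 4 named transcripts kept their direction and their call in 70 of 70 values, each 1 transcript in 1 alternative fit. The filter at a mean of at least 10 CPM left out ENSRNOT00000007638 and ENSRNOT00000091923. All 4 were chosen for large called differences in these data, so this is no separate support. Leaving out 1 APAP or MDA liver gave 3792 to 4382 called transcripts, with 1698 to 2091 higher in APAP (1698 without MDA replicate 2) and 1918 to 2371 higher in MDA. DESeq2 called 2457 higher in APAP and 2431 higher in MDA. The limma fits used CPM from totals without TMM factors, so they share that scaling with the fit on totals alone. With 1 CPM added limma called 2921 and 1681, and with 0.1 CPM added 2668 and 1578. Of the 2185 and 2295 transcripts called in each direction, totals alone kept 2144 and 1536. With a mean of at least 10 CPM, 1522 were higher in MDA, since fewer transcripts were tested. The livers share replicate numbers. Deviations of same-numbered livers were weakly related (correlations of -0.29 to 0.17, 3 of 15 over 0.1, own number best in 4 of 15). Between APAP and MDA livers they were 0.01 to 0.16, with the own number best in 3 of 5. Not every pair was over 0.1, so the numbers were not taken as pairs. A replicate block called 1954 and 2117 transcripts.

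With totals alone, the median log2 difference was 0.16 for the broad set (152 lower), -0.09 for B cells, 0.12 for neutrophils and -0.15 for monocytes, and 6 narrowed neutrophil members were lower. The limma fits were on totals too. With 1 CPM added, the median log2 difference was 0.16 for the broad set (450 higher, 153 lower). It was -0.06 for B cells, -0.14 for monocytes and 0.04 for the narrowed monocyte set (7 higher). With 0.1 CPM added, it was 0.17 for the broad set (150 lower), -0.09 for B cells, -0.15 for monocytes and 0.05 for the narrowed monocyte set, and 6 narrowed neutrophil members were lower. With no filter the neutrophil median was 0.31. With at least 10 CPM, 10 B cell, 13 NK cell, 2 CD4 T cell, 0 CD8 T cell and 22 neutrophil members were called, the monocyte median was -0.51, the narrowed neutrophil set had 9 higher and 2 lower with a median of 0.61, and the narrowed monocyte set had 1 higher and 6 lower.

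With immune sets above a fold of 3, 14 NK cell and 0 CD4 T cell members were called in edgeR, the latter with a median of 0.19. With sets of up to 50, 3 B cell (median 0.04), 5 NK cell, 3 CD4 T cell, 11 neutrophil (median 0.58) and 13 monocyte members were called. Liver-enriched transcripts of at least 50 CPM had 43 higher and 266 lower. The cause of these moves was not tested beyond the smaller number of members. Without 1 liver, the narrowed neutrophil members lower in APAP numbered 6 to 9 (6 without MDA replicate 3 or 5). With the 100 most abundant transcripts the share differed by -2.20 percentage points (exact permutation, adjusted p = 0.183). Leaving out 1 liver gave differences of -4.75 to -3.64 for the share of the 10 most abundant. The limit of 3 counts lay at 0.286 CPM or lower. What it stands for in reads differs between transcripts, so depth sets no single limit in CPM. With 5 livers a group, an exact permutation p cannot fall under 0.00794.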

Other observations

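All transcripts were also split by which of 9 kinds of sample held their highest mean, vehicle liver, spleen, whole blood cells or a sorted cell type, a split added after the values were seen. Of 3435 tested transcripts highest in vehicle liver, 1172 (34.1%) were higher in MDA livers and 370 (10.8%) higher in APAP livers, with a median log2 difference of -0.32. The opposite balance was widest in 2 other classes. Of 1152 transcripts highest in CD8 T cells, 377 (32.7%) were higher in APAP livers and 72 (6.25%) higher in MDA livers, with a median of 0.34. Of 605 highest in spleen, 144 (23.8%) were higher in APAP and 40 (6.61%) in MDA, with a median of 0.24. The shares over all transcripts were 16.2% and 17.0%. The CD8 T cell class was not rare in liver. It held 11.6% to 13.9% of the total in APAP livers, 8.60% to 9.76% in MDA livers and 6.04% to 6.61% in vehicle livers. With TMM factors its summed CPM was 96910.0 to 112628 in APAP, 80145 to 98132 in MDA and 72027 to 110005 in vehicle livers. Those ranges overlapped.

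Transcripts highest in monocytes (377 higher in APAP and 364 in MDA of 2709) and in neutrophils (225 and 206 of 1454) were near balance in this split with TMM factors. With totals alone they had 476 higher and 216 lower, and 283 higher and 116 lower. NK cell transcripts that are rare in vehicle liver summed to 109 to 193 CPM in APAP livers, 80.8 to 100.2 CPM in MDA livers and 56.4 to 88.9 CPM in vehicle livers, without overlap between the treatments. With TMM factors the APAP and MDA sums were 91.7 to 174 and 78.5 to 84.8 CPM, and the vehicle sums, 70.3 to 126 CPM, overlapped both. CD4 T cell transcripts that are rare in vehicle liver, at low levels, summed to 16.1 to 23.2 CPM in APAP livers, 7.67 to 12.9 CPM in MDA livers and 5.89 to 12.6 CPM in vehicle livers. With TMM factors the sums were 13.5 to 19.0 and 6.39 to 13.1 CPM in APAP and MDA livers. The vehicle sums were then 8.46 to 21.0 CPM and overlapped both. CD8 T cell transcripts that are rare in vehicle liver summed to 28.3 to 81.2 CPM after MDA, 11.7 to 51.5 CPM after APAP and 11.5 to 16.6 CPM after vehicle, with overlap between the treatments. With TMM factors the vehicle sums (14.4 to 27.7 CPM) overlapped those after MDA (26.9 to 66.7 CPM) and after APAP (9.77 to 41.2 CPM).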
